A study of Homo sapiens with 4 samples.

Results

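The cyclins, cyclin-dependent kinases (CDKs), CDK inhibitors, E2F factors, RB family proteins and their closest regulators form the engine of the cell division cycle. A list of 49 such genes was followed in KGN, a granulosa cell line of human ovarian tumour origin, after knockdown of the transcriptional co-activators YAP and TAZ. Of the 49, 48 had a probe set annotated with their symbol alone, out of 19775 genes so measured, and CDKN2C was not analysed here. Where a gene had several probe sets, the one with the highest mean over the 4 arrays stands for it. CDKN2B was below the floor described next on every array, which left 47 members to compare.

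RNA was hybridised to Affymetrix 3' expression arrays, 1 for each cell of a crossed design. The siYT+8Br-cAMP group received YAP and TAZ siRNAs at 5 nM each and, 48 h later, medium with 8Br-cAMP, which enters cells and mimics cyclic AMP, at 0.5 mM for 24 h. The siYT group received the same siRNAs and medium without 8Br-cAMP. The siNC+8Br-cAMP group received a control siRNA at 10 nM and then 8Br-cAMP, and the siNC group received the control siRNA alone. All 4 groups were KGN cells grown with serum, and all were transfected, so none is an untransfected baseline. Each group held 1 array, so no difference below has a replicate check, and sizes are given without a p-value except where the additive fit is named. Values are linear probe set intensities, and a value below 62.6, the median of the whole table, was raised to that floor before the log2 was taken. A member counted as higher or lower at a 2-fold difference, and a fold against an array below the floor is written as at least that fold.

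The targeted genes were lower on both knockdown arrays. The YAP1 probe set read 1295 in siYT and 4915 in siNC, and 1412 in siYT+8Br-cAMP and 4772 in siNC+8Br-cAMP. WWTR1, which encodes TAZ, read 1028 in siYT and 5366 in siNC, and 1154 in siYT+8Br-cAMP and 7048 in siNC+8Br-cAMP. Of 9 granulosa markers 6 were above the floor on each array, among them FOXL2, GATA4 and STAR, while AMHR2, FSHR and NR5A1 were below it on all 4. The summed intensity of the 4 epithelial markers was lower after knockdown (10659 in siYT and 49415 in siNC, 10873 in siYT+8Br-cAMP and 70409 in siNC+8Br-cAMP), nearly all of it from KRT18, with EPCAM and CDH1 below the floor throughout. The summed intensity of the 9 granulosa markers was higher in siYT (10791) than in siNC (3513), and stood at 61972 in siYT+8Br-cAMP and 47910 in siNC+8Br-cAMP. CYP19A1, aromatase, carried the difference by knockdown: without it the sums were 3577 in siYT and 3329 in siNC, and 37188 in siYT+8Br-cAMP and 41352 in siNC+8Br-cAMP. The theca, leukocyte and endothelial lists had 1 of 3 markers above the floor on each array, with sums of at most 274, 162 and 264. Of the oocyte list 1 gene was measured, above the floor only in siNC+8Br-cAMP at 85.2. The part of these genes in the results was not tested. On the siYT+8Br-cAMP array the 3' over 5' control ratio was 1.35 (ACTB) and 1.13 (GAPDH), and on the other 3 arrays it was 1.07 to 1.14 (ACTB) and 0.888 to 0.962 (GAPDH). Its part in the low values of that array was not tested. In place of replicates, the yardstick was how far probe sets of the same gene differ, as the SD of their log2 differences. It was 0.39 for siYT minus siNC, 0.54 for siYT+8Br-cAMP minus siNC+8Br-cAMP, 0.37 for siNC+8Br-cAMP minus siNC and 0.53 for siYT+8Br-cAMP minus siYT.

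D-type cyclins with CDK4 and CDK6, then cyclin E with CDK2, phosphorylate the RB family, which releases E2F factors to transcribe genes for DNA synthesis. Cyclin A2 and the B cyclins then drive S phase and mitosis with CDK2 and CDK1, under checks by CDK inhibitors, by inhibitory phosphorylation and by timed destruction through the ubiquitin ligases SCF and APC/C. In resting cells the DREAM complex, built on RBL1 or RBL2 and the MuvB core with LIN54, represses these genes, and in dividing cells MuvB works with MYBL2 and FOXM1 to switch on the G2 and M phase genes. YAP and TAZ act with TEAD factors and are known as promoters of proliferation, while cyclic AMP in granulosa cells accompanies their differentiation.

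After knockdown without 8Br-cAMP, 27 of the 47 members were at least 2-fold lower, against 6.05% of all 14427 genes compared, and 3 were at least 2-fold higher, against 7.3%. With 8Br-cAMP present 26 were lower, against 9.48% of all genes, and 0 were higher, against 6.74%. The comparisons without and with 8Br-cAMP share no array. In both, 22 members were at least 2-fold lower, against 2.81% of all genes, and 0 were higher, against 2.38%. The median over the members was -1.35 without and -1.34 with 8Br-cAMP on the log2 scale, and over all genes compared it was 0.00 in each. Counting differences of any size, 35 of the 47 were below siNC and siNC+8Br-cAMP alike, against 28.5% of all genes, and 3 were above them, against 28.5%. An additive limma fit of knockdown and 8Br-cAMP, which takes the difference of differences as its error with 1 residual degree of freedom, called 14 of the 47 lower at a Benjamini-Hochberg level of 0.05 over all genes, against 1.12% of all genes. It called 0 of them higher, against 0.658%, and 29 were lower at an unadjusted p under 0.05, against 9.99% of all genes. The fit did not use each gene's own error alone: limma moderated it towards that of all genes, with 4.94 prior degrees of freedom. Its standard errors and p-values therefore measure no spread between replicates. These arrays read bulk RNA, in which fewer cycling cells and less RNA of these genes per cell cannot be told apart.

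**Figure D1:**
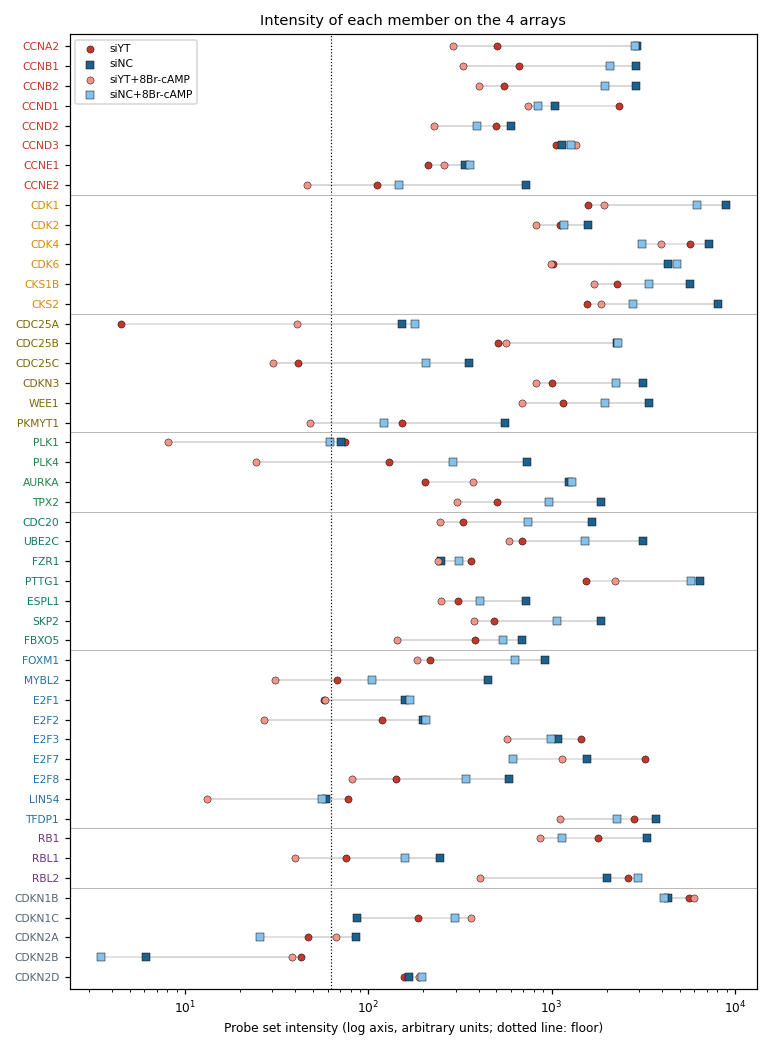
Intensity of the 48 members (log axis, arbitrary units) on the siYT, siNC, siYT+8Br-cAMP and siNC+8Br-cAMP arrays, 1 point per array and no error bars, with gene names coloured and separated by role; the dotted line is the floor of 62.6. For most cyclin, kinase and mitotic members both round points of the knockdown arrays lie left of both square points of the control arrays, as for CCNA2 (505 and 289 against 2920 and 2834).

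The promoters of members that were lower together were inspected for letters that proteins of the pathway are known to bind. LIN54 binds the CHR element (searched as TTTGAA or TTCGAA), NF-Y binds CCAAT, and E2F factors bind GC-rich sites (searched as TTTGGCGC, TTTCCCGC, TTTGGCGG, TTTCGCGC or TTCCCGCC, of which the second and the last can overlap). RefSeq promoters of GRCh38.p14, from 250 bases before to 50 after each annotated start, were matched by symbol for 36 of the 48 members, with 55 starts in all, and both strands were searched. Not matched were AURKA, CCND1, CCND2, CCNE2, CDK2, CDKN1C, E2F8, FOXM1, PKMYT1, TPX2, UBE2C and WEE1. The first 5 windows below show CHR and CCAAT letters in genes of G2 and M phase control, the next 2 show E2F letters in E2F1 and RBL1, and the last 2 are E2F7, which was not lower, and CCNE1, which did not reach 2-fold. Each is the 120 bases just before the start, 5′ to 3′, with matches on either strand in capitals (ATTGG is CCAAT on the other strand).
CCNB2, chr15:59105026-59105145, plus strand: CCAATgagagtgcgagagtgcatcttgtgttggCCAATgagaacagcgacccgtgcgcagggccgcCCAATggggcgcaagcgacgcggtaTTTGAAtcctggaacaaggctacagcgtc
CDC20, chr1:43358861-43358980, plus strand: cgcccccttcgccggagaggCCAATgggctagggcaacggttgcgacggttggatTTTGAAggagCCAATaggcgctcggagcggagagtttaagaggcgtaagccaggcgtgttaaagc
CKS1B, chr1:154974561-154974680, plus strand: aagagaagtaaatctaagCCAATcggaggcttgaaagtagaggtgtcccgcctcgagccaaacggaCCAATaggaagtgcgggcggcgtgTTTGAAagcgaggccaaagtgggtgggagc
CDC25C, chr5:138331805-138331924, minus strand: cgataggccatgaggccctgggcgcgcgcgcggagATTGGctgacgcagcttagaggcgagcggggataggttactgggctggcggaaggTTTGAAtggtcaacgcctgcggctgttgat
CDK1, chr10:60778358-60778477, plus strand: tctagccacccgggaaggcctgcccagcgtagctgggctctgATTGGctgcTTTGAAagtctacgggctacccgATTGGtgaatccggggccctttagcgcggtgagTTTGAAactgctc
E2F1, chr20:33686386-33686505, minus strand: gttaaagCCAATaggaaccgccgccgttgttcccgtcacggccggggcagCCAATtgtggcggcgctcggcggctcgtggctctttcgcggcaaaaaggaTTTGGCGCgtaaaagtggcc
RBL1, chr20:37095998-37096117, minus strand: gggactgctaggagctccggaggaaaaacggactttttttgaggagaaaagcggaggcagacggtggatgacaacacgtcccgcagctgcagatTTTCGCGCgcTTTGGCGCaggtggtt
E2F7, chr12:77065570-77065689, minus strand: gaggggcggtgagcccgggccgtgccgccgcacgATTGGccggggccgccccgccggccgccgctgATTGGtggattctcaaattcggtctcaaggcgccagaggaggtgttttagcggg
CCNE1, chr19:29811871-29811990, plus strand: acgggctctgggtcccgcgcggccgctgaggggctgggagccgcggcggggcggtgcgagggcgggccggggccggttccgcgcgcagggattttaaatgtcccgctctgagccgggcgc

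In the CCNB2 and CKS1B windows the CHR letters begin 29 and 30 bases before the start, with the nearest CCAAT box at 54 in each, and the CDC25C window has its CHR letters at 30. The CDC20 and CDK1 windows hold CHR letters at 65 and at 69 and 13, and RBL1 holds neighbouring E2F matches at 26 and 16. CKS1B was 2.49-fold and 1.99-fold lower, and so is not among the 22 members past 2-fold in both comparisons. The CHR letters were present in 9 of 26 promoters of members lower in both comparisons (34.6%), in 10 of 29 promoters of the other members (34.5%) and in 16.4% of all 35116 promoters in the table. Within 60 bases before the start the counts were 4 of 26, 5 of 29 and 3.17%. Those among the other members were CKS1B, CKS2, ESPL1, FBXO5 and PLK1, and they are not a set of unchanged genes. Like CKS1B, CKS2 (5.20-fold and 1.51-fold), ESPL1 (2.34-fold and 1.64-fold) and FBXO5 (1.80-fold and 3.78-fold) were past 2-fold lower in a single comparison. PLK1 was too near the floor to read. The shares therefore do not compare members that were lower with members that were not. CCAAT was present in 16 of 26 (61.5%), 12 of 29 (41.4%) and 34.6%, and the E2F letters in 6 of 26 (23.1%), 3 of 29 (10.3%) and 5.64%. The TEAD letters GGAATG were in 1 of 26, 2 of 29 and 14.0% of promoters, and the cyclic AMP element letters TGACGTCA or TGACGTAA in 2 of 26 (CCNA2 and PLK4), 0 of 29 and 2.24%. These are counts of letters without a test or a match on base composition, several starts of 1 gene share sequence, and a window without a match says nothing of sites elsewhere.

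**Figure D2:**
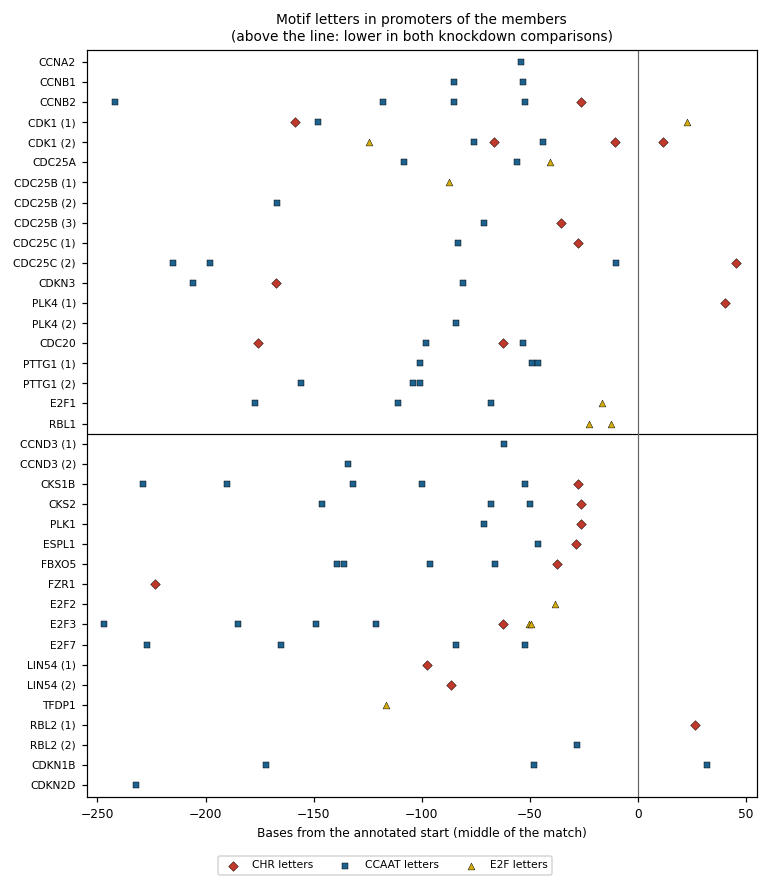
Position of CHR, CCAAT and E2F letters in the promoters of members (x axis, bases from the annotated start; 1 row per start that holds a match, numbered where a gene has several), with members lower in both knockdown comparisons above the line and the other members below it. CHR letters (diamonds) begin 29 to 31 bases before the start in CCNB2 and CDC25C above the line and in CKS1B, CKS2, PLK1 and ESPL1 below it.

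The mitotic and S phase cyclins were lower, and the cyclins of G1 mostly were not. CCNA2, cyclin A2, read 505 in siYT and 2920 in siNC, and 289 in siYT+8Br-cAMP and 2834 in siNC+8Br-cAMP, 5.78-fold and 9.82-fold lower. Its knockdown arrays lie well below both control arrays, and with control siRNA this probe set read nearly level with 8Br-cAMP. CCNB1, cyclin B1, read 663 in siYT and 2904 in siNC, and 327 in siYT+8Br-cAMP and 2095 in siNC+8Br-cAMP. CCNB2, cyclin B2, read 551 in siYT and 2876 in siNC, and 401 in siYT+8Br-cAMP and 1950 in siNC+8Br-cAMP. Both B cyclins were therefore lower by 4.38-fold to 6.40-fold in either comparison, and for each the siYT+8Br-cAMP array was the lowest of the 4. In the additive limma fit the knockdown terms were -2.91 ± 0.31 for CCNA2, -2.40 ± 0.29 for CCNB1 and -2.33 ± 0.27 for CCNB2 (log2, standard error), each with an adjusted p of 0.037.

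The E cyclins, which open S phase, differed in size. CCNE2 read 111 in siYT and 723 in siNC, and 46.1 in siYT+8Br-cAMP, below the floor, and 147 in siNC+8Br-cAMP, 6.49-fold and at least 2.35-fold lower. CCNE1 read 211 in siYT and 338 in siNC, and 258 in siYT+8Br-cAMP and 358 in siNC+8Br-cAMP, 1.60-fold and 1.39-fold lower, short of 2-fold in each. Among the D cyclins, which link growth signals to RB, CCND1 stood at 2322 in siYT and 1047 in siNC, and at 743 in siYT+8Br-cAMP and 846 in siNC+8Br-cAMP. Cyclin D1 was thus 2.22-fold higher after knockdown without 8Br-cAMP and 1.14-fold lower with it. By its second probe set the log2 differences were 0.36 and -0.26, the same signs at under 2-fold. CCND2 differed by -0.27 without and -0.78 with 8Br-cAMP, and CCND3 by -0.12 and 0.10, all on the log2 scale and short of 2-fold.

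Of the CDKs, CDK1 and CDK6 were past 2-fold, downward, in each knockdown comparison, and CDK2 and CDK4 in neither. CDK1, the mitotic kinase, read 1580 in siYT and 8894 in siNC, and 1931 in siYT+8Br-cAMP and 6201 in siNC+8Br-cAMP, 5.63-fold and 3.21-fold lower. CDK6, a partner of the D cyclins, read 1023 in siYT and 4322 in siNC, and 989 in siYT+8Br-cAMP and 4802 in siNC+8Br-cAMP, 4.23-fold and 4.85-fold lower. For both genes, by these probe sets, the control arrays lie above the knockdown arrays by more than the arrays of either siRNA differ among themselves. The additive fit put CDK6 at -2.18 ± 0.27 (log2, standard error) with an adjusted p of 0.037. CDK4, the other D cyclin kinase, read 5708 in siYT and 7225 in siNC, and 3940 in siYT+8Br-cAMP and 3114 in siNC+8Br-cAMP. CDK2, the partner of cyclins E and A, read 1114 in siYT and 1570 in siNC, and 817 in siYT+8Br-cAMP and 1169 in siNC+8Br-cAMP. Of these G1 and S phase kinases, CDK4 was 1.27-fold lower without and 1.27-fold higher with 8Br-cAMP, while CDK2 was 1.41-fold and 1.43-fold lower.

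The small CDK-binding proteins CKS1B and CKS2 were lower without 8Br-cAMP and less so with it. CKS2 read 1563 in siYT and 8133 in siNC, and 1850 in siYT+8Br-cAMP and 2788 in siNC+8Br-cAMP, 5.20-fold and 1.51-fold lower. The siNC array stands above the other 3, which lie within 2-fold of each other. CKS1B, which also serves SKP2 in the destruction of CDKN1B, read 2273 in siYT and 5653 in siNC, and 1711 in siYT+8Br-cAMP and 3405 in siNC+8Br-cAMP, 2.49-fold and 1.99-fold lower.

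The enzymes that set the phosphorylation of CDK1 and CDK2 were lower as a group, activators and inhibitors alike. All 6 were at least 2-fold lower without 8Br-cAMP and 5 of 6 with it, with medians of -1.76 and -1.52. CDC25B, a phosphatase that removes inhibitory phosphates, read 507 in siYT and 2262 in siNC, and 567 in siYT+8Br-cAMP and 2291 in siNC+8Br-cAMP, 4.46-fold and 4.04-fold lower. Its values with and without 8Br-cAMP were close for either siRNA. WEE1, the kinase that adds the inhibitory phosphate, read 1152 in siYT and 3411 in siNC, and 689 in siYT+8Br-cAMP and 1961 in siNC+8Br-cAMP, 2.96-fold and 2.85-fold lower. PKMYT1, its membrane-bound relative, read 152 in siYT and 558 in siNC, and 48.4 in siYT+8Br-cAMP, below the floor, and 121 in siNC+8Br-cAMP. That is 3.68-fold and at least 1.94-fold lower. CDKN3, which strips the activating phosphate from CDKs, was 3.14-fold and 2.73-fold lower. CDC25C, the mitotic phosphatase, whose printed promoter window holds CHR letters, was below the floor on both knockdown arrays and at least 5.68-fold and 3.30-fold lower. CDC25A, which acts in G1 and S phase, was also below the floor there, against 152 in siNC and 181 in siNC+8Br-cAMP, at least 2.43-fold and 2.89-fold lower.

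Among the mitotic kinases and their partners 3 of 4 were lower past 2-fold without and with 8Br-cAMP. AURKA, the spindle pole kinase Aurora A, read 204 in siYT and 1243 in siNC, and 374 in siYT+8Br-cAMP and 1295 in siNC+8Br-cAMP, 6.10-fold and 3.47-fold lower. TPX2, which activates Aurora A on spindle microtubules, read 503 in siYT and 1849 in siNC, and 303 in siYT+8Br-cAMP and 969 in siNC+8Br-cAMP, 3.67-fold and 3.20-fold lower. The kinase and its activator were both below their controls. With control siRNA, 8Br-cAMP left AURKA level by this probe set (0.41 by another bright one) and put TPX2 at -0.93 (log2). PLK4, the kinase that starts centriole duplication, read 130 in siYT and 736 in siNC, and 24.3 in siYT+8Br-cAMP, below the floor, and 291 in siNC+8Br-cAMP, 5.65-fold and at least 4.65-fold lower. PLK1, the main Polo kinase of mitosis, read 74.6 in siYT and 70.9 in siNC and was below the floor on both 8Br-cAMP arrays, so that a lower level could not be read.

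Of 7 genes of the ubiquitin machinery and of sister chromatid release, 5 were at least 2-fold lower in each knockdown comparison and 4 in both. CDC20, the activator of APC/C in mitosis, read 328 in siYT and 1657 in siNC, and 245 in siYT+8Br-cAMP and 741 in siNC+8Br-cAMP, 5.05-fold and 3.02-fold lower. UBE2C, the ubiquitin-conjugating enzyme of APC/C, read 689 in siYT and 3149 in siNC, and 583 in siYT+8Br-cAMP and 1527 in siNC+8Br-cAMP, 4.57-fold and 2.62-fold lower. For both, the siNC+8Br-cAMP array lay between the siNC array and the knockdown arrays. FZR1, the activator that replaces CDC20 from late mitosis into G1, read 364 in siYT and 250 in siNC, and 241 in siYT+8Br-cAMP and 312 in siNC+8Br-cAMP, with log2 differences of 0.55 and -0.37. Its dimmer probe sets gave 0.00 and 0.77, 0.02 and 0.37, and 1.01 and -0.62. The direction of FZR1 with 8Br-cAMP is thus not settled. PTTG1, securin, was 4.18-fold and 2.60-fold lower, while ESPL1, the protease separase that securin holds back, was 2.34-fold and 1.64-fold lower. By the second ESPL1 probe set it was 2.34-fold and 4.01-fold lower, past 2-fold in both. FBXO5, an inhibitor of APC/C, was below its control by 1.80-fold without 8Br-cAMP and by 3.78-fold with it. SKP2, the SCF subunit that targets CDKN1B, read 485 in siYT and 1871 in siNC, and 377 in siYT+8Br-cAMP and 1072 in siNC+8Br-cAMP, 3.86-fold and 2.84-fold lower.

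**Figure D3:**
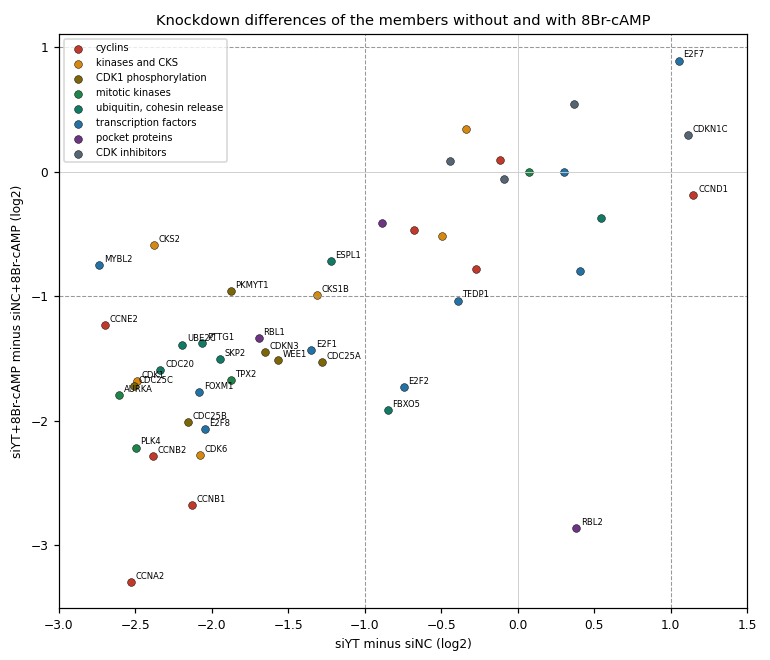
Log2 difference of each of the 47 compared members after knockdown without 8Br-cAMP (x axis, siYT minus siNC) and with it (y axis, siYT+8Br-cAMP minus siNC+8Br-cAMP), 1 point per gene coloured by role, with dashed lines at 2-fold and names for genes past 2-fold in either. The 22 genes lower in both fill the lower left, from CCNA2 (-2.53 and -3.30) to CDC25A (-1.28 and -1.53), while RBL2 (0.38 and -2.86) stands alone at the lower right and no gene lies past 2-fold at the upper right.

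The transcription factors divided. FOXM1, which drives G2 and M phase genes, read 218 in siYT and 925 in siNC, and 185 in siYT+8Br-cAMP and 629 in siNC+8Br-cAMP, 4.23-fold and 3.41-fold lower. MYBL2, B-Myb, read 67.4 in siYT and 449 in siNC, and 30.9 in siYT+8Br-cAMP, below the floor, and 105 in siNC+8Br-cAMP, 6.66-fold and at least 1.68-fold lower. Both partners of MuvB in dividing cells were thus low on the knockdown arrays, though with 8Br-cAMP the floor limits what could be read for MYBL2. LIN54, the DNA-binding subunit of MuvB, was above the floor only in siYT, at 77.1, and so could not be followed.

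The E2F members differed among themselves. The activator E2F1 read 57.5 in siYT, below the floor, and 160 in siNC, and 58.2 in siYT+8Br-cAMP, also below it, and 169 in siNC+8Br-cAMP, at least 2.55-fold and 2.71-fold lower. E2F2 was 1.68-fold lower without 8Br-cAMP and at least 3.32-fold lower with it, against 199 in siNC and 208 in siNC+8Br-cAMP. E2F3 read 1444 in siYT and 1088 in siNC, and 574 in siYT+8Br-cAMP and 997 in siNC+8Br-cAMP, short of 2-fold and opposite in sign in the 2 comparisons. Its other probe set had the same sign without 8Br-cAMP (0.22) and the opposite one with it (0.97), so the direction of E2F3 with 8Br-cAMP is not settled. The atypical repressors E2F7 and E2F8, which are close relatives, went opposite ways. E2F8 read 142 in siYT and 587 in siNC, and 81.0 in siYT+8Br-cAMP and 340 in siNC+8Br-cAMP, 4.13-fold and 4.20-fold lower. E2F7 read 3226 in siYT and 1552 in siNC, and 1138 in siYT+8Br-cAMP and 613 in siNC+8Br-cAMP, 2.08-fold and 1.86-fold higher. The second E2F7 probe set, dimmer, gave 0.13 and 0.81 on the log2 scale. TFDP1, the shared partner of E2F factors, differed by -0.39 without and -1.04 with 8Br-cAMP, and by -0.66 and -1.10 by its second probe set. By its remaining probe set TFDP1 was 2.33-fold and 2.84-fold lower, past 2-fold in both.

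Of the pocket proteins, RBL1 was at least 2-fold lower in both comparisons. RBL1, also known as p107 and printed with its E2F letters, read 76.0 in siYT and 246 in siNC, and 39.9 in siYT+8Br-cAMP, below the floor, and 158 in siNC+8Br-cAMP, 3.23-fold and at least 2.53-fold lower. RB1 read 1785 in siYT and 3296 in siNC, and 862 in siYT+8Br-cAMP and 1147 in siNC+8Br-cAMP, 1.85-fold and 1.33-fold lower. RBL2, p130, the pocket protein most tied to resting cells, read 2625 in siYT and 2014 in siNC, and 409 in siYT+8Br-cAMP and 2971 in siNC+8Br-cAMP. One array, siYT+8Br-cAMP, is low by this probe set and the other 3 lie within 1.48-fold of siNC. The second RBL2 probe set read 226 in siYT and 240 in siNC, and 221 in siYT+8Br-cAMP and 326 in siNC+8Br-cAMP, a log2 difference of -0.56 where the first gave -2.86.

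None of the 4 CDK inhibitors compared was at least 2-fold lower in either knockdown comparison. For CDKN2A in both comparisons and CDKN1C without 8Br-cAMP, the control reading was too near the floor of 62.6 for a 2-fold fall to be read. CDKN1B, p27, which holds cyclin E and CDK2 in check, read 5588 in siYT and 4321 in siNC, and 5992 in siYT+8Br-cAMP and 4103 in siNC+8Br-cAMP, 1.29-fold and 1.46-fold higher. CDKN1C, p57, read 188 in siYT and 86.6 in siNC, and 365 in siYT+8Br-cAMP and 298 in siNC+8Br-cAMP, 2.17-fold and 1.22-fold higher. Both knockdown arrays exceed their controls for each gene, by less than 2-fold in all but CDKN1C without 8Br-cAMP. Of the dimmer CDKN1C probe sets, 1 gave negative differences (-0.40 and -0.68) and another gave 0.35 and -0.37, so the probe sets of this gene disagree. The difference without 8Br-cAMP was 0.92 under quantile normalization and 0.39 for the mean of all probe sets, both short of 2-fold. CDKN2D, p19, differed by -0.09 and -0.06. CDKN2A, the p16 and ARF gene, read 47.0 in siYT and 85.2 in siNC, and 66.3 in siYT+8Br-cAMP and 25.6 in siNC+8Br-cAMP, too near the floor to read. CDKN2B, p15, was below the floor on all 4 arrays. The remaining family member CDKN1A, p21, not on the list, differed by 0.40 and 0.86. The proliferation markers MKI67 (-1.60 and -1.26) and TOP2A (-3.12 and -1.13) were past 2-fold downward in both, while PCNA (-0.97 and -1.58) and MCM2 (-0.69 and -1.51) were so only with 8Br-cAMP.

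Most members were read by several probe sets, which repeat the measurement on the same arrays. For the 22 members lower in both comparisons, 12 had other probe sets above the floor on some array, 21 in all, and 12 of those 21 were also at least 2-fold lower in both. Among the 13 that exceeded 4 times the floor, 11 were. The exceptions were a WEE1 probe set (-0.92 and -0.79) and a PLK4 probe set that was 2-fold lower only without 8Br-cAMP (-2.40 and 0.00). That PLK4 probe set read 66.4 in siYT+8Br-cAMP and 66.2 in siNC+8Br-cAMP, near the floor, so a lower level could not be read there. For CCNA2 the second probe set gave -2.71 and -3.41, and for CDK1 the brighter 2 of the other 3 gave -2.11 to -2.43 without and -1.39 to -1.85 with 8Br-cAMP. The other bright CDK6 probe sets lay at -1.58 and -1.93 without and at -3.87 and -2.64 with 8Br-cAMP. With probe sets of shared-sequence suffix left out, AURKA, CDC25C, E2F1 and PLK4 were no longer lower past 2-fold in both comparisons, and the other 18 were. The probe sets then standing for AURKA, CDC25C and E2F1 were below the floor on all 4 arrays, so no difference could be read. PLK4 was then read by the exception above. The other bright AURKA probe set, which has such a suffix, gave -2.43 and -2.46.

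Lists of other genes of the pathway were set against the 2.81% of all genes lower and the 2.38% higher in both knockdown comparisons. Of 22 further cyclins and CDKs, 1 was past 2-fold downward in both knockdown comparisons and 1 upward. The lower one was CCNF, cyclin F, an SCF subunit that peaks in G2 (-2.78 and -1.36), and the higher one CCNY, a cyclin of membrane-bound CDK14 and CDK16 (1.94 and 1.81). Of 12 further subunits of RB, E2F, MuvB and NF-Y complexes, MYBL1 alone was past 2-fold downward in both (-2.23 and -2.93) and 0 were upward in both. With 8Br-cAMP 4 of the 12 were lower, against 9.48% of all genes: MYBL1, E2F4 (-1.13), LIN52 (-1.13) and RBBP4 (-1.38), a repressor E2F and 2 parts of MuvB. Without 8Br-cAMP these 3 were at -0.02, -0.64 and -0.80, and TFDP2, a partner of E2F factors, was 3.12-fold higher. The NF-Y subunits did not reach 2-fold, at 0.15 and 0.73 for NFYA, -0.21 and -0.70 for NFYB and 0.00 and -0.07 for NFYC. Of 20 APC/C and SCF subunits, CDC23, an APC/C scaffold protein, was lower in both (-1.61 and -1.28), and FBXW7, the SCF subunit that targets cyclin E, was higher in both (1.55 and 1.34). The medians of these lists were -0.02, -0.21 and -0.03 without and -0.12, -0.50 and 0.08 with 8Br-cAMP, against 0.00 over all genes compared.

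Fewer members differed by this much with 8Br-cAMP. With control siRNA 10 of 47 were at least 2-fold lower, against 5.22% of all genes, and 1 was higher, against 4.34%. After YAP/TAZ siRNA 11 were lower, against 9.88%, and 0 were higher, against 5%. In both, 4 were lower by the chosen probe sets (PKMYT1, PLK4, E2F7 and RB1), against 2.08% of all genes. The members' medians were -0.49 with control siRNA and -0.36 after knockdown, and 0.00 over all genes. The additive limma fit called 0 members lower and 0 higher for 8Br-cAMP, against 0.0277% and 0.111% of all genes, with a lowest adjusted p of 0.112 among members, and 16 members had an unadjusted p under 0.05, against 15.6% of all genes. Of these 16, 15 were lower, against 9.35%. On the siYT+8Br-cAMP array 12 of the 48 members were below the floor, against 5 on the siYT array. Where siYT was above the floor, as for PKMYT1 and PLK4, a fall could be read only as a bound. Where siYT was below it too, no fall could be read.

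By the chosen probe sets, the members furthest below siNC with 8Br-cAMP were CCNE2, PKMYT1 and MYBL2. CCNE2 read 147 in siNC+8Br-cAMP and 723 in siNC, 4.92-fold lower, and 46.1 in siYT+8Br-cAMP, below the floor, and 111 in siYT, at least 1.78-fold lower. The second CCNE2 probe set read 181 in siNC+8Br-cAMP and 302 in siNC, 1.67-fold lower, and a second PLK4 probe set gave -2.32 where the chosen one gave -1.34. PKMYT1 was 4.60-fold lower with control siRNA and at least 2.43-fold lower after knockdown, and MYBL2 4.27-fold and at least 1.08-fold. In siYT MYBL2 was already near the floor, at 67.4, while CCNE2 (111) and PKMYT1 (152) were further above it. CDK4 read 3114 in siNC+8Br-cAMP and 7225 in siNC, 2.32-fold lower, and 3940 in siYT+8Br-cAMP and 5708 in siYT, 1.45-fold lower. RB1 read 1147 in siNC+8Br-cAMP and 3296 in siNC, and 862 in siYT+8Br-cAMP and 1785 in siYT, 2.87-fold and 2.07-fold lower. E2F7, higher after knockdown, was lower with 8Br-cAMP by its chosen probe set, by 2.53-fold with control siRNA and 2.84-fold after knockdown. Its second, dimmer probe set gave log2 differences of -0.38 with control siRNA and 0.30 after knockdown, the latter in the opposite direction. CDKN1C read 298 in siNC+8Br-cAMP and 86.6 in siNC, 3.44-fold higher, and 365 in siYT+8Br-cAMP and 188 in siYT, 1.95-fold higher. Dimmer CDKN1C probe sets gave log2 differences of 1.31, 0.48 and 0.28 with control siRNA. After knockdown the first 2 of these gave 0.59 and 0.39, and the last was below the floor. The mean of all CDKN1C probe sets gave 0.77 with control siRNA and 0.39 after knockdown, both short of 2-fold.

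By the chosen probe sets, several members lower in both knockdown comparisons were close to level with 8Br-cAMP after control siRNA. CCNA2 differed by -0.04, CDC25B by 0.02, CDK6 by 0.15, AURKA by 0.06 and E2F1 by 0.09, all on the log2 scale. After YAP/TAZ siRNA CCNA2 differed by -0.81, CDC25B by 0.16, CDK6 by -0.05 and AURKA by 0.87, and E2F1 was below the floor on both arrays. The second CCNA2 probe set gave -0.49 with control siRNA and -1.19 after knockdown. Other bright CDK6 probe sets lay at 0.49 and 0.36 for siNC+8Br-cAMP minus siNC. For siYT+8Br-cAMP minus siYT they lay at -1.80 and -0.34. The former read 478 in siYT and 137 in siYT+8Br-cAMP, 3.48-fold lower. Whether CDK6 was level with 8Br-cAMP in YAP/TAZ siRNA cells thus depends on the probe set. By the chosen probe sets, the knockdown differences without 8Br-cAMP were -2.53 for CCNA2, -2.16 for CDC25B, -2.08 for CDK6, -2.61 for AURKA and -1.35 for E2F1. The 2 sets of differences share the siNC array and were not tested against each other. CDC20 (-1.16), UBE2C (-1.04), CKS2 (-1.54) and PLK4 (-1.34) were past 2-fold with control siRNA. After knockdown CCND1 read 743 in siYT+8Br-cAMP and 2322 in siYT, 3.13-fold lower, and CCNB1 was 2.03-fold lower, CCND2 2.17-fold, FBXO5 2.66-fold, E2F3 2.51-fold and TFDP1 2.52-fold. For E2F3 the other probe set gave 0.40 here, the opposite direction. CCNB1 was 1.52-fold lower by its second probe set. CCNB1 was at -0.95 under cyclic loess and -0.85 under quantile normalization, and CCND2 at -0.96 and -0.93, all short of 2-fold. By the first CCND1 probe set the siYT array is high and the other 3 lie within 1.41-fold of siNC. By the second, which read 137 in siYT+8Br-cAMP and 500 in siYT, and 165 in siNC+8Br-cAMP and 388 in siNC, both 8Br-cAMP arrays are low, 3.64-fold and 2.36-fold below.

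**Figure D4:**
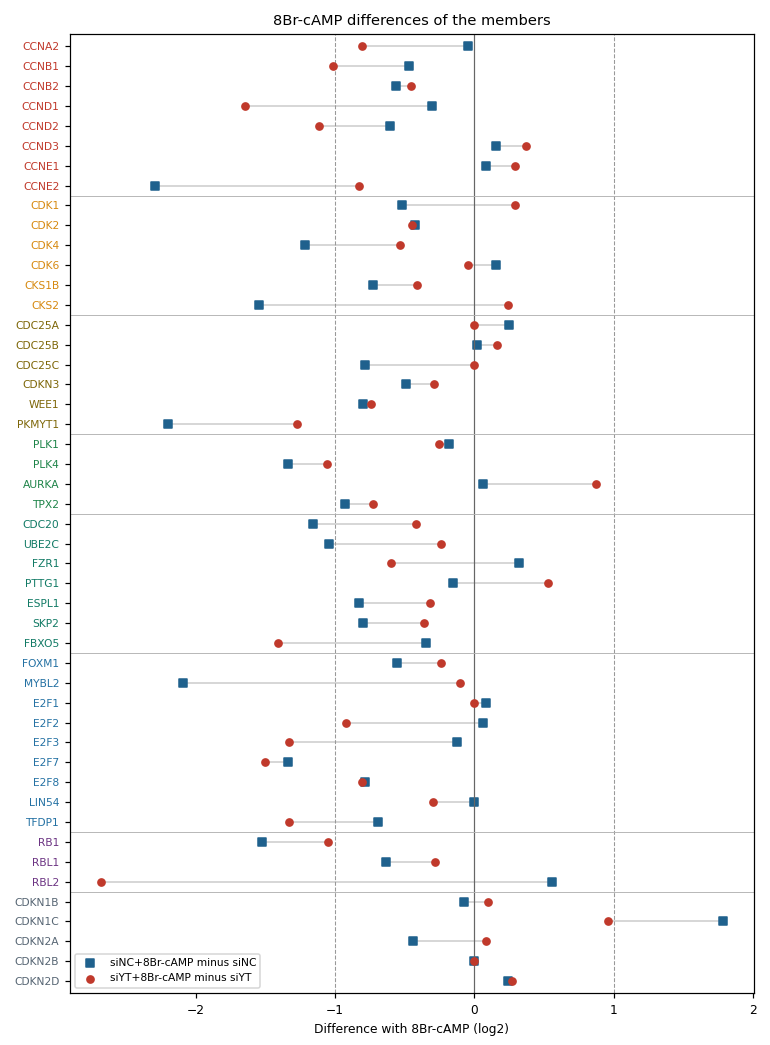
Log2 difference with 8Br-cAMP for each of the 48 members, with control siRNA (squares, siNC+8Br-cAMP minus siNC) and after YAP/TAZ siRNA (circles, siYT+8Br-cAMP minus siYT), 1 point per comparison and no error bars, with dashed lines at 2-fold. Most points lie between the dashed lines, CCNE2 (-2.30), PKMYT1 (-2.20) and MYBL2 (-2.09) are furthest left with control siRNA, and RBL2 (0.56 and -2.68) has the widest gap between its points.

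The difference of the 2 knockdown differences, which equals that of the 8Br-cAMP differences, was past 2-fold for 7 members. It was positive for 3 of the 47, against 5.39% of all genes, and negative for 4, against 9.56%. The positive ones were MYBL2 (1.99), CKS2 (1.79) and CCNE2 (1.47). The CKS2 readings were all well above the floor, and knockdown went with a smaller difference when 8Br-cAMP was present. For MYBL2 and CCNE2 the siYT+8Br-cAMP reading was below the floor, so these values are upper bounds and a smaller difference cannot be stated, and the second CCNE2 probe set gave 0.69. The negative ones were RBL2 (-3.24), CCND1 (-1.34), E2F3 (-1.20) and FBXO5 (-1.07). Other probe sets gave -0.47 for RBL2, -0.63 for CCND1 and 0.75 for E2F3, whose sign is thus not settled. For FBXO5, read at 381 in siYT and 687 in siNC and at 143 in siYT+8Br-cAMP and 540 in siNC+8Br-cAMP, the second probe set gave -0.89. These values rest on all 4 arrays, of which none has a replicate, and were not tested.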

How the data were processed

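The deposited values are probe set intensities on a linear scale; RMA in Affymetrix Expression Console is named in the submitters' processing notes, and neither version is stated. These values do not look like RMA output: they are linear, and each array has a 2% trimmed mean near 500.1, so background correction and summary are unknown. Per the labels' protocols, 100 ng of RNA was labelled with a 3' kit. Of 54675 probe sets, 41097 had 1 gene symbol (41043 matched by gene identifier, 0 renamed), 1801 several and 11777 none here; the last 2 kinds were not used. Values below 62.6 (log2 5.97) were set to it. Genes took the probe set with the highest mean log2; 14427 genes were above the floor on an array, 35 members on all 4. With 1 array per group, precision cannot be estimated from replicates. The yardstick used 7501 probe sets of 3019 genes above 4 times the floor. Members, lists, motifs and the rule that all members are described by role were chosen with earlier results of these data known. The additive fit used limma 3.58.1 in R 4.3.3, and the size rule and fit were tested on simulated data. Python 3.11.15 was used. Alternatives were no floor (log2 of value plus 1), a filter at the 75th percentile of values, the mean of all probe sets, exclusion of probe sets shared by suffix, cyclic loess, quantile normalization, and 1.5-fold and 3-fold thresholds.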

Additional observations from a re-analysis of the deposited data

Results flagged for a closer look

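In 3 members the direction differed between conditions, with at least 1 side past 2-fold and a difference of differences past 2-fold. With 1 array per group these differences were not tested. CCND1 was higher after knockdown without 8Br-cAMP (1.15) and slightly lower with it (-0.19), a difference of -1.34 on the log2 scale, and its second probe set gave -0.63. RBL2 gave 0.38 and -2.86 for knockdown and 0.56 and -2.68 for 8Br-cAMP, a difference of -3.24 in both views, against -0.47 by its other probe set. CKS2 was lower with 8Br-cAMP after control siRNA (-1.54) and slightly higher after YAP/TAZ siRNA (0.24), a difference of 1.79, with no second probe set.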

How the results depend on the processing

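Of the counts, the 22 members lower in the knockdown comparisons without and with 8Br-cAMP became 13 at 3-fold and 14 in the additive limma fit, and 27 without the siYT+8Br-cAMP array, where only the other comparison remains. The count with 8Br-cAMP, 26, became 16 at 3-fold. With 8Br-cAMP after control siRNA the count of 10 became 6 with the 75th percentile filter, which left 30 members, 20 at 1.5-fold and 3 at 3-fold. After YAP/TAZ siRNA the count of 11 became 5 with the mean of all probe sets, 18 at 1.5-fold and 2 at 3-fold. No share of all genes was taken at the other thresholds, with the filter or with the mean of all probe sets. Those counts therefore cannot be set against all genes. The mean of all probe sets, which includes dim ones held at the floor, also took the knockdown medians to -0.79 and -0.75. All 22 members lower in both remained under cyclic loess, quantile normalization and no floor. Of the 22, 18 remained without shared probe sets (AURKA, CDC25C, E2F1 and PLK4 did not) and 16 with the mean of all probe sets (CCNB2, CDC25A, CDC25C, E2F1, PLK4 and RBL1 did not). Without shared probe sets, AURKA, CDC25C and E2F1 were read by probe sets below the floor on every array, so no difference could be read. PLK4 changed sign without shared probe sets, to 0.00267 for knockdown with 8Br-cAMP and 0.0836 for 8Br-cAMP after knockdown. The probe set then used read 55.7 in siYT, below the floor, 66.4 in siYT+8Br-cAMP and 66.2 in siNC+8Br-cAMP. A lower level could therefore not be read by it, and why the PLK4 probe sets differ was not tested. No paired analysis was possible because each group holds 1 array. Each group rests on 1 array, and readings near the floor give bounds.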

Other observations

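Of 22 further cyclins and CDKs, 1 was past 2-fold lower with 8Br-cAMP in both comparisons and 1 higher. Of 12 further RB, E2F, MuvB and NF-Y subunits, 1 was lower in both and 0 were higher. Over all 14427 genes compared, 300 (2.08%) were lower in both and 210 were higher. CCNG2, an unconventional cyclin linked to cell cycle arrest, read 565 in siNC+8Br-cAMP and 2145 in siNC, and 710 in siYT+8Br-cAMP and 2948 in siYT, log2 differences of -1.92 and -2.05. MYBL1, A-Myb, read 710 in siNC+8Br-cAMP and 2447 in siNC, and 93.1 in siYT+8Br-cAMP and 521 in siYT, log2 differences of -1.78 and -2.48. CDK12, a kinase of transcription elongation, was higher by 1.04 and 1.26. Of 20 APC/C and SCF subunits 0 were past 2-fold with 8Br-cAMP in both comparisons. These are single arrays without a replicate check.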
